A study of Mus musculus with 24 samples.

Results

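The genes described here are the 88 of 13998 genes in the deposited table whose transcripts start between 20 and 26.08 Mb of Chr 17 on GRCm38, with the zinc finger genes named *Zfp* and *Hagh*, *Nthl1* and *Mapk8ip3* left out. *Gm4944* and *3110052M02Rik*, which GENCODE names *Zfp994* and *Zfp983*, were kept under the table's names. The 88 genes lie within the CAST segment of the B6.CAST-17.1 subcongenic strain, just proximal to the reduced interval for carbohydrate and total food intake. The authors' linkage intervals for these traits also covered this stretch. They set it aside because another subcongenic strain with CAST alleles there lacked the intake differences. RefSeq annotates 308 genes between 20 and 26.08 Mb, 185 of them protein coding. The table holds 111 genes there, of which the 20 named *Zfp* and the 3 others named above were left out. Genes that the table does not hold were not analysed here. By position, 3 of the 88 started between 20 and 23 Mb, 11 between 23 and 24 Mb, 36 between 24 and 25 Mb and 38 between 25 and 26.08 Mb.

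The libraries are SAGE-Seq of the hypothalamus of 24 male F2 mice, a mix of many cell types, with 1 library per mouse. By genotype at the Chr 17 segment, 12 were *b6/b6* and 12 *cast/cast*, and all carried *b6/b6* alleles elsewhere in the genome. The CAST/EiJ segment was introduced through a single congenic male crossed to C57BL/6J females, so that the *cast/cast* mice carry copies of 1 donor segment. All were young adults that had chosen for 10 d between a carbohydrate/protein (C/P) and a fat/protein diet, and they had been selected from the tails of C/*P* intake, high for *cast/cast* and low for *b6/b6*, so that genotype and intake cannot be told apart. Tissue was taken after the diets had been offered again and a short fast. In such tissue, fewer cells of a type and less RNA per cell cannot be told apart.

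The part of this stretch of Chr 17 that holds most of the members matches the gene-dense tip of the short arm of human chromosome 16. Among its genes are parts of the pathway that senses nutrients through mTORC1, a kinase complex that favours growth and synthesis when amino acids and insulin signalling suffice, and that is known in the hypothalamus as a regulator of food intake. *Tsc2* restrains mTORC1, *Mlst8* is one of its subunits, *Wdr24* belongs to the GATOR2 complex that relays amino acid supply to it, *Telo2* helps to assemble it, and *Pdpk1* activates the kinases AKT and S6K on either side of it.

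In SAGE-Seq a transcript is counted through the short tag that follows its last CATG, so that the count follows the number of transcripts and not their length. The table holds no tags, and those shown here were predicted from GENCODE transcripts (release M21, GRCm38) as the 27 bases from the last CATG, in capitals, read in the direction of transcription. They are shown for the members with the largest genotype differences, since each count rests on such a site, and for pairs of genes that share or face a site.
Fbxl16 (chr17:25820619-25820645, plus strand, 3′ UTR): CATGttctgtcaggtctcaagaaattt
Rpusd1 (chr17:25731382-25731408, plus strand, 3′ UTR): CATGtctgccacaacacagccacagca
Eme2 (chr17:24892324-24892350, minus strand, 3′ UTR): CATGggaggtgggtgagagggtaaggg
Spsb3 (chr17:24892045-24892071, plus strand, 3′ UTR): CATGttgtcagctcctgctgcagagat
Tbl3 (chr17:24698319-24698345, minus strand, 3′ UTR): CATGactatggatgcttgaaggagctc
Noxo1 (chr17:24699975-24700001, plus strand, coding exon): CATGtgctggagacctcagaccgaggc
Caskin1 (chr17:24508554-24508580, plus strand, 3′ UTR): CATGctgaccgctcatcagcctcctct
Wfikkn1 (chr17:25877802-25877828, minus strand, coding exon): CATGggtgaggttcgtgaaggtgtggc
Ptx4 (chr17:25124759-25124785, plus strand, coding exon): CATGgccgaaactccctggtccctggt
9530082P21Rik (chr17:23753912-23753938, plus strand, noncoding exon): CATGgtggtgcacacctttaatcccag

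The tag of *Eme2* also occurs in a transcript of *Mapk8ip3* on the same strand, and the tag of *9530082P21Rik* is found in 4 other genes. The counts of both are therefore uncertain. Whether the shared sequence is the tag counted for the other gene was not tested. The tag of *Nme3* likewise occurs in a transcript of *Mrps34*, its neighbour on the same strand, and the tag of *Fam173a* is found in 1 other gene. By the GENCODE transcripts, the *Tbl3* and *Noxo1* tags lie under exons of each other's gene, and that of *Spsb3* under an exon of *Eme2*, each on opposite strands. For *Caskin1*, *Tbl3* and *Gng13*, and for 9 members not called below, no annotated transcript ended within 10 bases of the deposited model. Another annotated transcript of each gene was taken, and the tag counted may differ. The tag predicted for *Gng13* also lay under an exon of *Chtf18* on the opposite strand. The deposited *Tbl3* model starts at 24700653, so the *Tbl3* tag shown lies outside it. The deposited model does not reach the *Noxo1* tag either. Over all 88 members, 59 tags were in a 3′ UTR and 20 in a coding exon, 78 were found in no other gene, and 22 lay under an exon of another gene. Among the members called below, 10 of 17 tags were in a 3′ UTR and 6 of 17 lay under another gene's exon, against 49 and 16 of the 71 members not called.

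The libraries held 7754202 to 13082873 tag hits per mouse. In 4 of them, *b6/b6* mice 6 and 12 and *cast/cast* mice 4 and 6, the median correlation with the other libraries over genes outside the segment was 0.862 to 0.914, against 0.927 to 0.960 for the rest. All 4 had study numbers under 200, where 5 *b6/b6* and 8 *cast/cast* mice fell. Of the 88 members, 40 had their highest or lowest value in *b6/b6* mouse 12. In 1 of the 4 libraries 50.0% of members were highest and 40.9% lowest, against 47.1% and 38.8% of genes outside the segment. Of the hypothalamic marker genes listed to check the tissue, 11 of 12 were in the table, with summed normalized counts of 10814 to 28948 in *b6/b6* and 5638 to 31984 among *cast/cast* mice. The 3 blood markers in the table summed to 121 to 4999 in *b6/b6* and to 105 to 782 among *cast/cast* mice, the 6 thalamus markers to 229 to 1214 and 247 to 800, the 4 choroid plexus markers to 122 to 167 and 87.4 to 364, and the 3 pituitary markers to 0 to 471 and 0 to 283. Of these lists, 1 gene was called, the thalamus marker *Tcf7l2*, with a log2 fold change of -0.84. The highest blood sum was in a library that stood apart. The part of the other tissues in the results was not tested.

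A gene was called when the unadjusted *P* of limma was at most 0.01 and the ratio of mean normalized counts at least 1.5. On this basis 17 of the 88 members were called between genotypes, 7 higher and 10 lower with *cast/cast* alleles, where 1.49% of all genes tested were called, 0.471% higher and 1.01% lower. Outside the CAST segment 0.676% of 12867 genes were called. In the stretches on either side, the same rule called 22.2% of 63 genes between 3.19 and 20 Mb and 24.7% of 85 genes between 26.08 and 32.5 Mb. The share among the members was 19.3%. From the members, 20 zinc finger genes and 3 others, *Mapk8ip3* among them, had been left out, but none from these stretches. The shares are therefore of unlike sets, and their difference was not tested. With a Benjamini-Hochberg adjusted *P* of at most 0.05 over all genes in place of the unadjusted one, 10 members were called, 4 higher and 6 lower, against 0.572% of all genes, 0.143% higher and 0.429% lower. No mouse of one genotype overlapped the other for 5 members, against 0.336% of all genes and 0 of the 12867 genes outside the segment. Their direction was mixed. The median log2 fold change was -0.01 over the 88 members and -0.02 over all genes, while the median of its size without sign was 0.32 and 0.19, respectively.

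**Figure D1:**
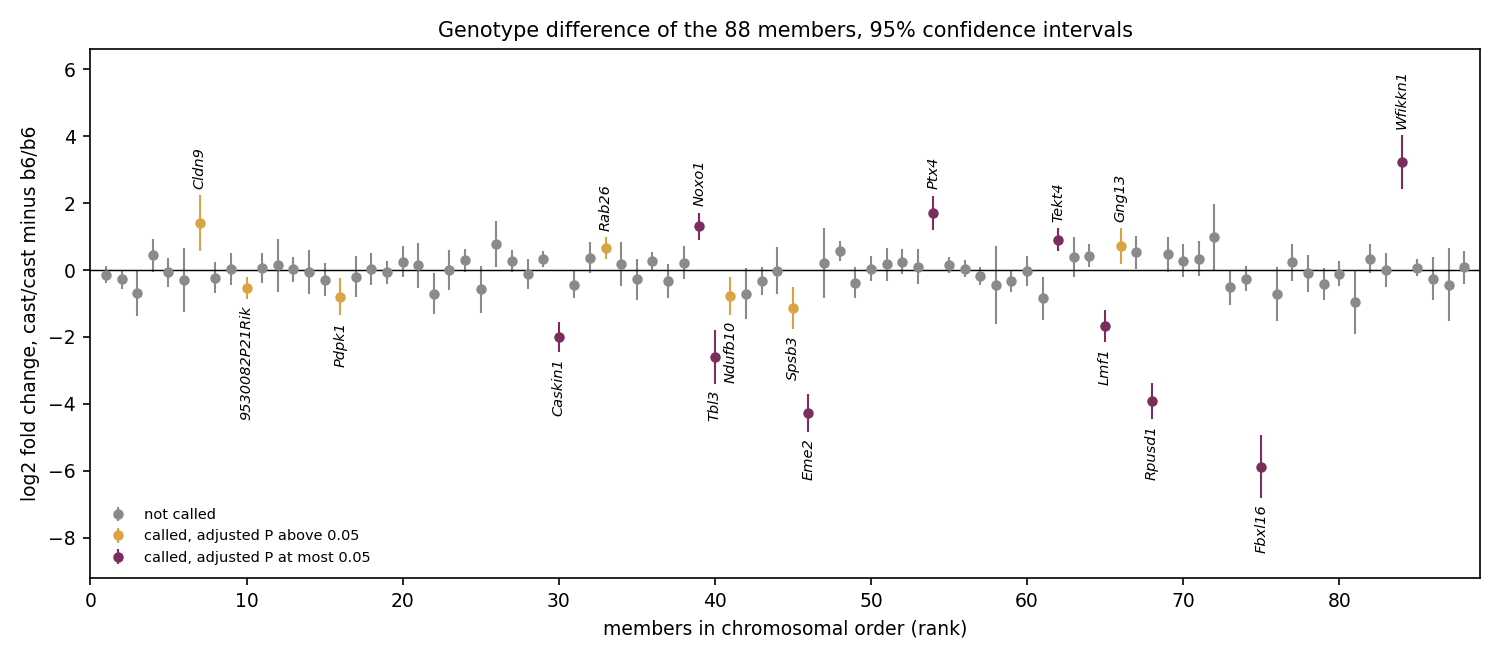
Log2 fold change of normalized counts, cast/cast minus b6/b6, for the 88 members in the order of their position on Chr 17, with 95% confidence intervals (limma, n = 12 mice per genotype). The 17 called members are spread along the row and stand next to members near 0; Fbxl16, Eme2 and Rpusd1 lie lowest and Wfikkn1 highest.

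The 3 members before 23 Mb were not called by limma, against 2 of 11 between 23 and 24 Mb, 8 of 36 between 24 and 25 Mb and 7 of 38 beyond 25 Mb. Among these 3, edgeR and DESeq2 called *Gm4944*, whose highest values were *b6/b6* mice 12 and 6, at 169 and 138. Without the libraries that stood apart, the limma log2 fold change of *Gm4944* went from -0.70 to -0.28. The members with the lowest and highest log2 fold changes stood beside genes with small differences, as the plot of all members in order shows. The 10 members called at the adjusted *P* are described first by their function, and then the other 7. For all of them, CAST sequence at the tags was not analysed, and its effect on the *cast/cast* counts was not tested.

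Ubiquitin and protein turnover held the member with the largest difference. *Fbxl16*, an F-box protein with leucine-rich repeats that is abundant in brain, ranged from 242 to 2833 normalized counts in *b6/b6* mice with a median of 1280, and from 1.91 to 53.9 among *cast/cast* mice with a median of 19.9. All *b6/b6* mice lay above all *cast/cast* mice. The mean was 1416 ± 960 (SD, n = 12) in *b6/b6* and 22.8 ± 15.4 among *cast/cast* mice, 62.1-fold lower, with a log2 fold change of -5.87 ± 0.46 (SE, adjusted *P* = 4.18e-10). One other of the 9 members of this group was called, *Spsb3*, also lower, and 7 were not, with log2 fold changes of -0.44 to 0.14.

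Of the 5 members that act on RNA, *Rpusd1* and *Tbl3* were lower with *cast/cast* alleles. *Rpusd1* has the domain of pseudouridine synthases, enzymes that modify uridines in RNA. It ranged from 129 to 617 normalized counts in *b6/b6* mice with a median of 219, and from 7.53 to 31.4 among *cast/cast* mice with a median of 14.2. The genotypes did not overlap, and the fold change was 16.6 (log2 -3.90 ± 0.26 SE, adjusted *P* = 1.12e-11). *Tbl3*, part of the complex that processes the small ribosomal subunit, ranged from 28.0 to 257 in *b6/b6* mice with a median of 63.2, and from 1.27 to 32.04 among *cast/cast* mice with a median of 14.0. Here 11 *cast/cast* mice were under every *b6/b6* mouse, and 1 *cast/cast* mouse overlapped them. The mean was 5.87-fold lower (log2 -2.59 ± 0.39 SE, adjusted *P* = 0.000117). The highest *Tbl3* values were those of *b6/b6* mice 12 and 6, at 257 and 153, and without the 4 libraries that stood apart the log2 fold change was -1.97. *Rnps1*, *Srrm2* and *Thoc6*, which act in splicing and mRNA export, were not called, with log2 fold changes of -0.06 to 0.29.

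*Eme2*, a partner of the DNA structure-specific nuclease MUS81, ranged from 149 to 459 normalized counts in *b6/b6* mice with a median of 226, and from 2.15 to 24.9 among *cast/cast* mice with a median of 12.6. All 12 *cast/cast* mice were under the lowest *b6/b6* mouse. The mean was 19.6-fold lower, at 12.8 ± 6.35 against 252 ± 104 (log2 fold change -4.27 ± 0.28 SE, adjusted *P* = 6.07e-12). *Mapk8ip3*, not among the 88, holds the tag shown above in a transcript. It fell from 3376 ± 715 in *b6/b6* to 76.4 ± 40.4 among *cast/cast* mice (log2 fold change -5.76 ± 0.35 SE, adjusted *P* = 1.74e-12). The counts of these genes differ, so both were not counted by this tag alone. How much of the *Eme2* count came from transcripts of *Mapk8ip3* was not tested. The other 8 members that act on DNA, chromatin or transcription were not called, and their log2 fold changes ran from -0.29 to 0.78.

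**Figure D2:**
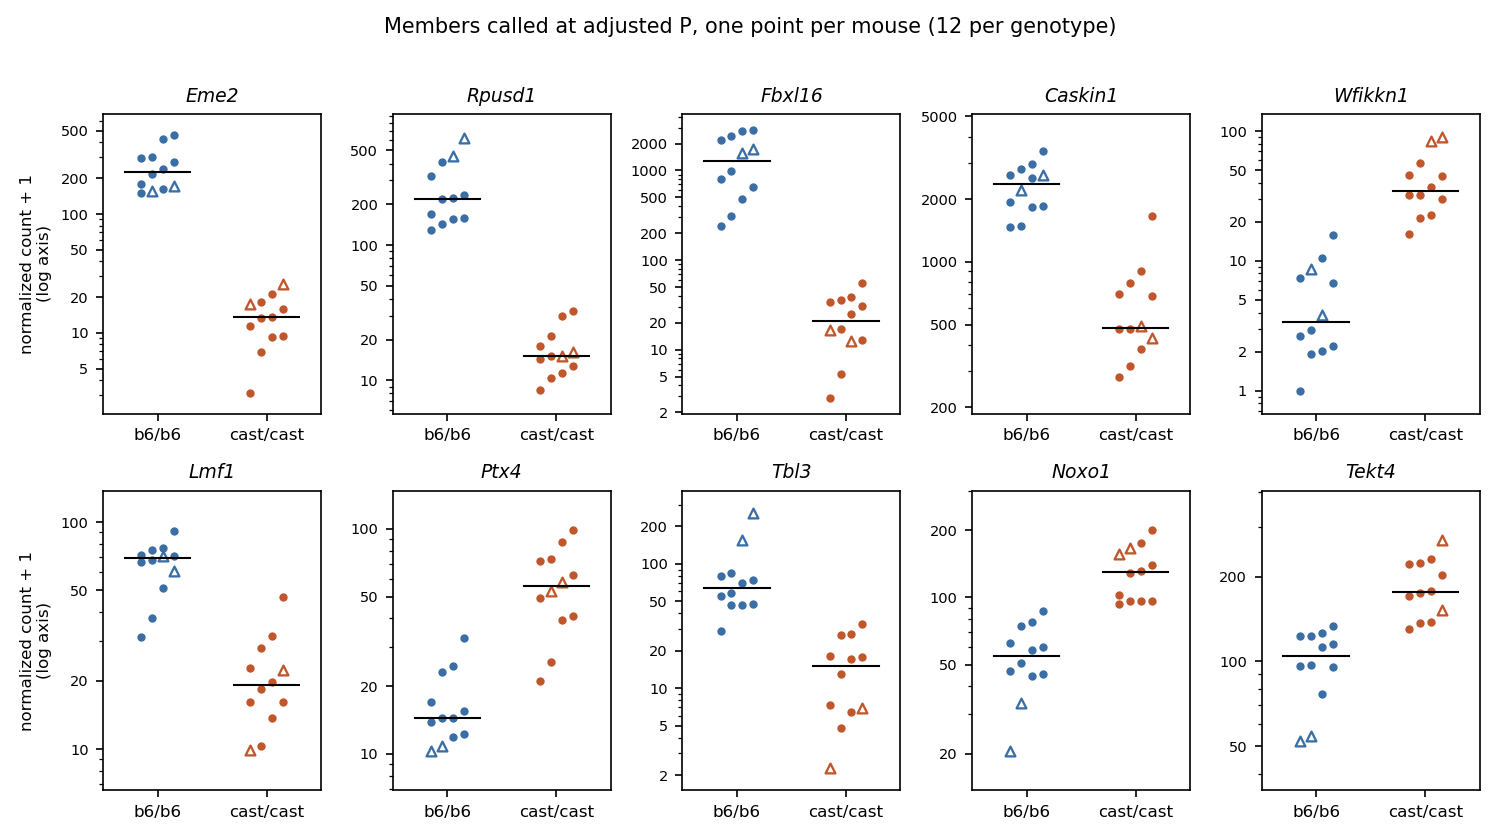
Normalized counts plus 1 on a log axis for the 10 members called at an adjusted P of at most 0.05, with 1 point per mouse, 12 of each genotype, a bar at the median, and open triangles for the 4 libraries that stood apart. The genotypes are separate for Eme2, Rpusd1, Fbxl16, Wfikkn1 and Noxo1 and share part of their range for the other 5 members.

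Genes of synapse, vesicle and cilium moved in both directions. *Caskin1*, a scaffold protein that binds the synaptic kinase CASK, ranged from 1465 to 3414 normalized counts in *b6/b6* mice with a median of 2376, and from 279 to 1653 among *cast/cast* mice with a median of 483. A single *cast/cast* mouse reached into the *b6/b6* range. The mean was 3.66-fold lower, at 631 ± 375 against 2310 ± 610 (log2 fold change -2.00 ± 0.22 SE, adjusted *P* = 5.54e-07). *Tekt4*, a tektin of ciliary and flagellar microtubules, was higher with *cast/cast* alleles, from 129 to 268 with a median of 175, against 51.4 to 132 with a median of 104. Only the lowest *cast/cast* mouse fell within the *b6/b6* range. The mean ratio was 1.85 (log2 0.91 ± 0.17 SE, adjusted *P* = 0.00299). Of the other 9 members of this group, *Rab26* was called and 8 were not, among them *Syngr3*, a synaptic vesicle protein, with 1513 ± 927 in *b6/b6* and 1130 ± 428 among *cast/cast* mice.

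Of the 8 secreted proteins and receptor signalling genes, 3 were higher with *cast/cast* alleles and none lower, against 0.471% and 1.01% of all genes. The role of *Ptx4* was corrected after the table was seen, so this count is no test of the group. *Wfikkn1*, a secreted protein with protease inhibitor domains that binds myostatin, ranged from 0 to 14.7 normalized counts in *b6/b6* mice with a median of 2.37, and from 15.1 to 89.0 among *cast/cast* mice with a median of 33.7. The genotypes did not overlap, although in *b6/b6* mice the gene was near the limit of the depth, with more than 3 tag hits in 5 of 12 mice. The mean was 9.36-fold higher (log2 3.22 ± 0.39 SE, adjusted *P* = 2.68e-06). *Ptx4*, a pentraxin, ranged from 9.34 to 31.6 in *b6/b6* mice with a median of 13.4, and from 20.1 to 97.4 among *cast/cast* mice with a median of 54.5. Of the *cast/cast* mice, 10 exceeded every *b6/b6* mouse, and the mean was 3.54-fold higher (log2 1.72 ± 0.25 SE, adjusted *P* = 4.79e-05). Besides these, *Gng13* was called. *Ntn3*, a netrin, had 82.4 ± 21.5 in *b6/b6* and 77.3 ± 16.1 among *cast/cast* mice, and *Metrn*, the secreted protein meteorin, had 1931 ± 597 and 1595 ± 471, neither of them called.

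*Noxo1*, which organizes the NADPH oxidase NOX1, was the other member with separate genotypes. It ranged from 19.6 to 86.0 normalized counts in *b6/b6* mice with a median of 53.6, and from 92.6 to 199 among *cast/cast* mice with a median of 129. The mean was 2.42-fold higher (log2 1.30 ± 0.20 SE, adjusted *P* = 0.000153). Its neighbour *Tbl3*, which faces it on the other strand, was lower in the same mice.

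*Lmf1* was the member of lipid metabolism and mitochondria with the largest difference. It is needed in the endoplasmic reticulum for lipoprotein lipase to fold. It ranged from 30.1 to 90.5 normalized counts in *b6/b6* mice with a median of 68.5, and from 8.89 to 45.8 among *cast/cast* mice with a median of 18.1, and 10 *cast/cast* mice were under every *b6/b6* mouse. The mean was 3.12-fold lower (log2 -1.68 ± 0.23 SE, adjusted *P* = 2.51e-05). Of the 15 members in this group, *Ndufb10* was the only other one called, also lower, and the 13 not called had log2 fold changes of -0.70 to 0.56. *Nme3*, a nucleoside diphosphate kinase, had a smaller *P* than 6 of the called members but a ratio of 1.44. Its normalized counts ran from 993 to 2544 for *b6/b6* mice and from 1807 to 3162 for *cast/cast* mice (log2 fold change 0.56 ± 0.15 SE, *P* = 0.000726, adjusted *P* = 0.112). This count is uncertain, since its tag also occurs in a transcript of *Mrps34*. *Eci1*, an isomerase of fatty acid oxidation, had 51.1 ± 48.9 in *b6/b6* and 28.5 ± 12.2 among *cast/cast* mice, and without the 4 libraries that stood apart its log2 fold change went from -0.58 to 0.00. *Abca3*, a transporter of phospholipids, had 161 ± 181 and 72.6 ± 17.6, and the *b6/b6* spread came from mice 12 and 6, at 656 and 405.

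The 7 other called members did not pass the adjusted *P*, and each had overlapping genotypes. *Rab26*, a small GTPase of secretory and synaptic vesicles, ranged from 60.9 to 163 normalized counts in *b6/b6* and from 97.3 to 267 among *cast/cast* mice, with medians of 104 and 165 (log2 fold change 0.66 ± 0.16 SE, *P* = 0.000292, adjusted *P* = 0.0504). *Spsb3*, the substrate receptor of a cullin ubiquitin ligase, ranged from 24.3 to 137 and from 14.0 to 67.3, with medians of 72.9 and 26.6 (log2 -1.13 ± 0.31 SE, *P* = 0.00108, adjusted *P* = 0.150). *Cldn9*, a claudin of tight junctions, ranged from 0 to 13.4 and from 4.55 to 21.5, with medians of 5.58 and 12.8 (log2 1.40 ± 0.41 SE, *P* = 0.00188, adjusted *P* = 0.214). *Rab26* and *Cldn9* were thus higher and *Spsb3* lower with *cast/cast* alleles, with 6 of 12 *cast/cast* mice above every *b6/b6* mouse for both of the former. Leaving out 1 mouse at a time kept *Spsb3* and *Cldn9* called in all 24 fits and *Rab26* in 23, *cast/cast* mouse 3 being the exception, without which the log2 fold change of *Rab26* was 0.59.

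The calls of the other 4 changed with the mice left out. *Ndufb10*, a subunit of respiratory complex I, ranged from 87.2 to 585 normalized counts in *b6/b6* mice with a median of 166, and from 77.2 to 151 among *cast/cast* mice with a median of 94.5 (log2 fold change -0.77 ± 0.27 SE, *P* = 0.00867, adjusted *P* = 0.472). *Gng13*, a G protein gamma subunit of sensory and brain cells, ranged from 63.1 to 390 and from 255 to 699, with medians of 252 and 309 (log2 0.72 ± 0.26 SE, *P* = 0.00939, adjusted *P* = 0.482). The noncoding *9530082P21Rik* ranged from 369 to 1071 and from 302 to 528, with medians of 551 and 369 (log2 -0.54 ± 0.16 SE, *P* = 0.00185, adjusted *P* = 0.214). Its ratio lay just above the limit of 1.5, and its *P* was at most 0.00396 with any single mouse left out. Without the 4 libraries that stood apart, none of these 3 was called, and the log2 fold changes were -0.40, 0.46 and -0.52, respectively. The fourth, *Pdpk1*, is described with nutrient sensing. Leaving out a single mouse ended the call of *Ndufb10* in 14 of 24 fits, of *Gng13* in 13, of *9530082P21Rik* in 12 and of *Pdpk1* in 8. For *Ndufb10* these were *b6/b6* mice 1, 2, 5, 6, 8, 10 and 12 and *cast/cast* mice 1, 4, 5, 6, 7, 8 and 11, with log2 fold changes from -0.79 to -0.62. For *Gng13* they were *b6/b6* mice 1, 2, 6, 10 and 12 and *cast/cast* mice 1, 2, 3, 6, 7, 9, 10 and 12, with 0.57 to 0.75. The call of *9530082P21Rik* ended without *b6/b6* mouse 1, 4, 5, 6, 8 or 12 or *cast/cast* mouse 1, 5, 7, 8, 10 or 11, with -0.54 to -0.45, and that of *Pdpk1* without *b6/b6* mouse 2, 6 or 12 or *cast/cast* mouse 1, 3, 4, 8 or 12, with -0.79 to -0.61. *Gng13* was not called by edgeR or DESeq2 either, with log2 fold changes of 0.60 and 0.61. These tools called 21 and 19 of the 88 members, against 2.79% and 2.82% of all genes.

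**Figure D3:**
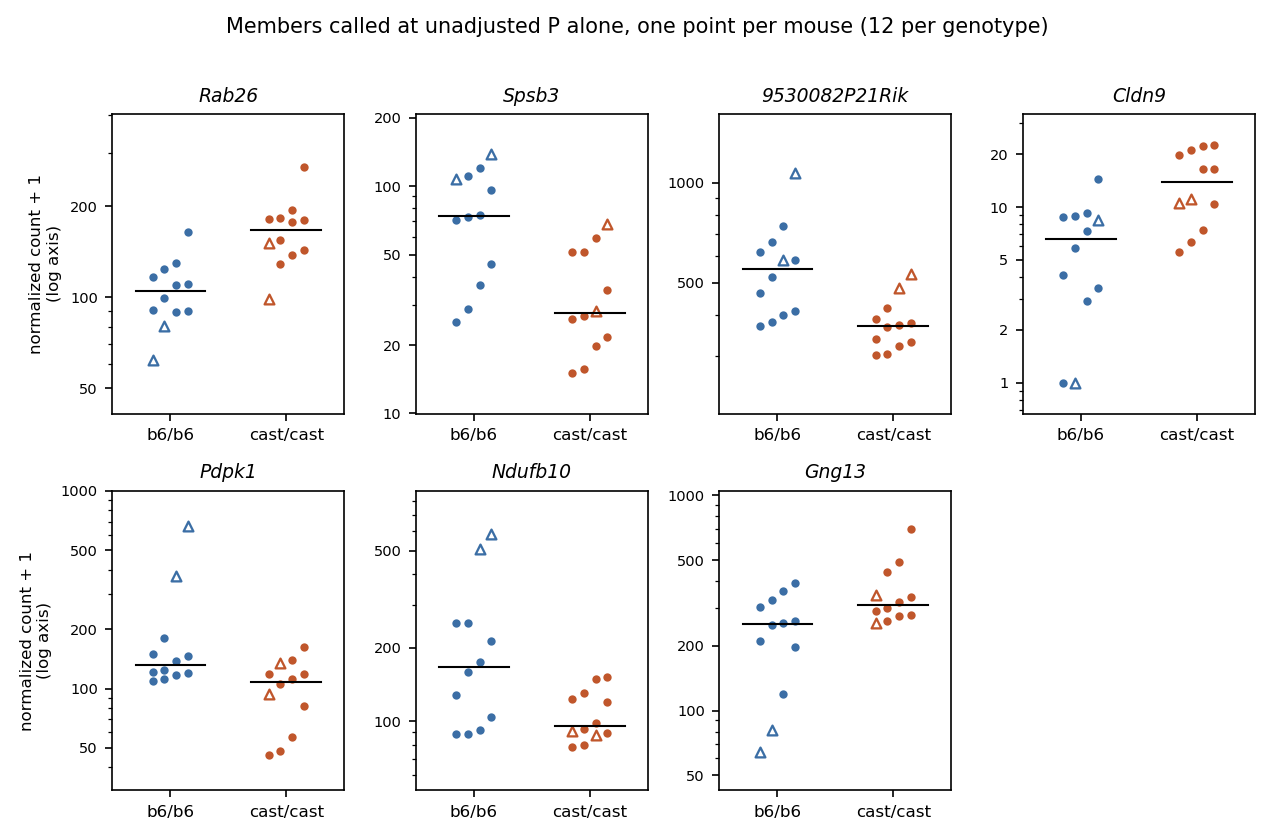
Normalized counts plus 1 on a log axis for the 7 members called at the unadjusted P alone, with 1 point per mouse, 12 of each genotype, a bar at the median, and open triangles for the 4 libraries that stood apart. For Pdpk1 and Ndufb10 the highest points are the 2 triangles of b6/b6 mice 6 and 12, while Cldn9 and Rab26 are shifted upwards among cast/cast mice with overlap.

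Of the 5 members that act in nutrient sensing, *Pdpk1* was called and the other 4 were not. *Pdpk1*, the kinase PDK1, ranged from 109 to 667 normalized counts in *b6/b6* mice with a median of 130, and from 44.9 to 161 among *cast/cast* mice with a median of 107 (log2 fold change -0.79 ± 0.28 SE, *P* = 0.00778, adjusted *P* = 0.466). The highest were *b6/b6* mice 12 and 6, at 667 and 370, and without the 4 libraries that stood apart the log2 fold change was -0.52 and the gene was not called. *Mlst8*, the mTORC1 and mTORC2 subunit, ranged from 473 to 859 in *b6/b6* mice with a median of 647, and from 639 to 1105 among *cast/cast* mice with a median of 775. Its *P* was 0.00635 with a ratio of 1.27, below the fold limit (log2 0.34 ± 0.11 SE, adjusted *P* = 0.432).

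*Tsc2*, whose product with TSC1 switches off the mTORC1 activator RHEB, ranged from 574 to 2185 normalized counts in *b6/b6* mice with a median of 1005, and from 342 to 2700 among *cast/cast* mice with a median of 763 (log2 fold change -0.28, 95% confidence interval -0.89 to 0.34). Without the libraries that stood apart it was -0.73 (*P* = 0.0105), just outside the *P* limit. *Wdr24* ranged from 12.5 to 362 in *b6/b6* and from 16.1 to 46.3 among *cast/cast* mice, with medians of 34.0 and 26.3 (log2 -0.72, interval -1.52 to 0.09), and its highest values were *b6/b6* mice 12 and 6, at 362 and 243. It was called by edgeR, and without the libraries that stood apart its log2 fold change was -0.30. *Telo2* ranged from 127 to 532 and from 151 to 617, with medians of 233 and 223 (log2 0.10, interval -0.42 to 0.63). The genotypes overlapped for all 5 of these genes, and the libraries that stood apart held extreme values in each of them. Among the mTORC1 pathway genes listed from elsewhere in the genome, 37 of 41 were in the table and none was called by limma, where 6 had an unadjusted *P* under 0.05, 3 higher and 3 lower, against 8.13% of all genes. edgeR and DESeq2 each called 2 of the 37.

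**Figure D4:**
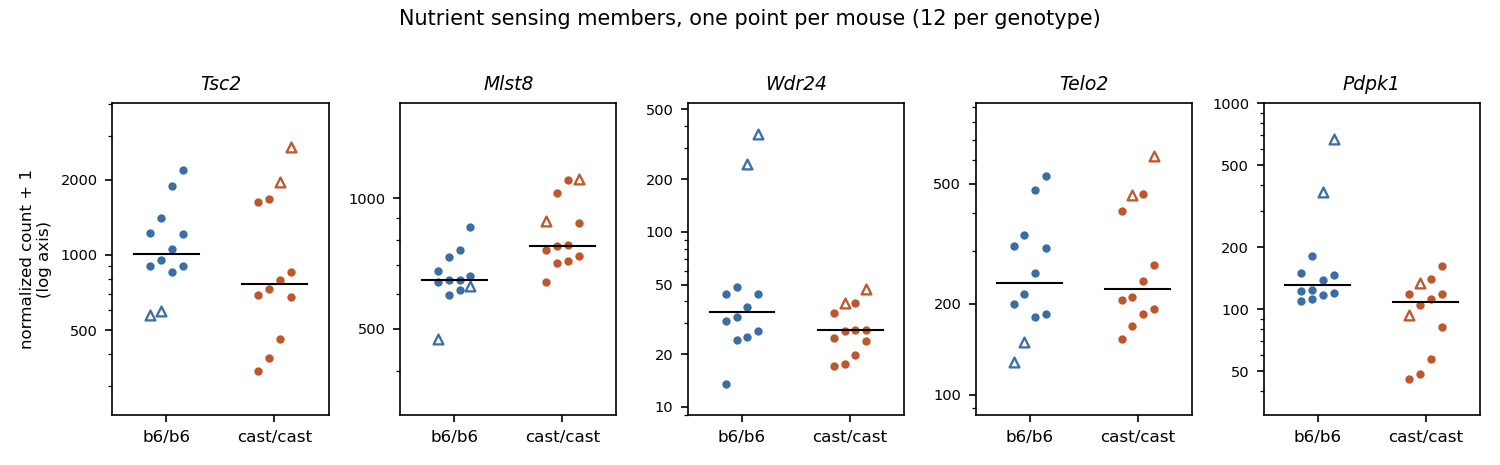
Normalized counts plus 1 on a log axis for the 5 nutrient sensing members, with 1 point per mouse, 12 of each genotype, a bar at the median, and open triangles for the 4 libraries that stood apart. Mlst8 is shifted upwards among cast/cast mice with overlap, and the highest Wdr24 and Pdpk1 points are the triangles of b6/b6 mice 6 and 12.

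Among channels, transporters and membrane proteins, *Noxo1* and *Cldn9* were higher and the other 6 members were not called. The role of *Noxo1* was also corrected after the table was seen. *Cacna1h*, a T-type calcium channel, ranged from 23.9 to 169 normalized counts in *b6/b6* and from 10.7 to 52.2 among *cast/cast* mice, with medians of 41.5 and 28.6 and a log2 fold change of -0.84 ± 0.31 (SE, *P* = 0.0119, adjusted *P* = 0.512). It was called by edgeR and DESeq2, and without the libraries that stood apart its log2 fold change was -0.34. *Pkd1*, polycystin, had 627 ± 323 in *b6/b6* and 793 ± 613 among *cast/cast* mice. The interval of its log2 fold change of 0.17 ran from -0.49 to 0.83.

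The 18 members with no shared role held 1 call, the noncoding *9530082P21Rik*. They included *Fam173a*, which was thus not counted with lipid metabolism and mitochondria. *Fam173a*, a methyltransferase of mitochondria, ranged from 625 to 4188 normalized counts in *b6/b6* mice with a median of 2587, and from 983 to 2559 among *cast/cast* mice with a median of 1299 (log2 fold change -0.52 ± 0.26 SE, *P* = 0.0539). Its lowest value was *b6/b6* mouse 12, and without the libraries that stood apart the log2 fold change was -0.96 (*P* = 1.03e-05, adjusted *P* = 0.00222), and the gene was called. *Amdhd2*, an enzyme of amino sugar breakdown, and *2810468N07Rik* were also called in that fit, with log2 fold changes of -0.65 and 0.57, for a total of 16 members where 1.37% of all genes were called. *Ppp2r1a*, the scaffold subunit of protein phosphatase 2A, had 2239 ± 537 in *b6/b6* and 2018 ± 345 among *cast/cast* mice, with an interval of the log2 fold change from -0.40 to 0.12.

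Of the 71 members not called, 12 had an unadjusted *P* under 0.05, 6 higher and 6 lower. They were 16.9% of the 71, against 8.13% of all genes and 7.15% of those outside the CAST segment. For 20 of the 71 the whole 95% interval lay within a 1.5-fold difference, while for the other 51 the interval reached beyond it, so a difference of that size remained possible. The median coefficient of variation over mice was 41.5% in *b6/b6* and 37.9% among *cast/cast* mice. It was over 100% in *b6/b6* mice for 8 members, 7 of which were highest in mouse 12, and among *cast/cast* mice for 0 members.

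Genotype and study number were linked, with a median study number of 270 in *b6/b6* and 120 among *cast/cast* mice, and the comparison was therefore repeated within the mice numbered under 200 and from 200. In the former 13 members were called (2.93% of all genes) and in the latter 12 of 86 (1.06% of all genes). All 17 called members had the same direction in both sets, and 9 were called in both. Since the 17 were chosen over these same mice, the shared direction was partly fixed by the choice and is no separate test. *Fbxl16* had log2 fold changes of -6.57 and -5.83, *Eme2* of -3.95 and -4.33, *Rpusd1* of -4.22 and -3.44, and *Wfikkn1* of 3.14 and 3.30 in the lower and higher numbers, respectively. *Tekt4* differed more, with 1.24 and 0.58, and *Pdpk1* with -1.20 and -0.54. No member had a genotype difference that itself differed between these sets after adjustment over all genes (limma interaction term, lowest adjusted *P* = 0.609, with 5 of 88 members and 1145 of all 13998 genes at an unadjusted *P* under 0.05).

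**Figure D5:**
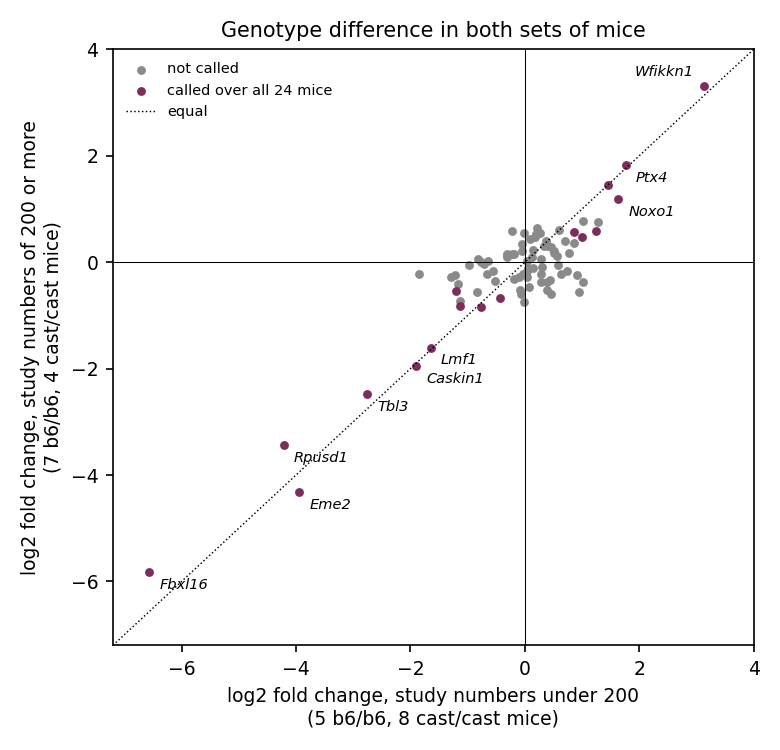
Log2 fold change, cast/cast minus b6/b6, in mice with study numbers under 200 (5 b6/b6 and 8 cast/cast) on the x axis and of 200 or more (7 and 4) on the y axis, for the 86 members tested in both. The dotted line marks equal values; called members lie on the same side of 0 in both sets, while the others scatter around 0.

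Within a genotype, the normalized counts of the called members were compared with C/*P* intake over 10 d, which gave 34 correlations over 12 mice each. Pearson's r ran from -0.77 to 0.56, and no correlation passed the adjustment (permutation test, two-sided, lowest adjusted *P* = 0.0921 for r and 0.640 for Spearman's rho). The strongest was *Rpusd1* in *b6/b6* mice, with r = -0.77 (*P* = 0.00271) and rho = -0.56 (*P* = 0.0613), and r = -0.71 without the 2 mice farthest from the median intake. An unadjusted *P* of r under 0.05 was reached by 4 of the 34 and of rho by 0.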

How the data were processed

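Hypothalamic SAGE-Seq libraries of 24 F2 mice were analysed, 12 per genotype, grouped by the labelled genotype. Replicates were separate mice. The authors aligned tags to RefSeq mRNA and GRCm38 (mm10) with SOLiD SAGE software and scaled each library's tag hits by its DESeq size factor. The deposited signal values are these normalized counts. CAST sequence at the tags was not analysed here, and its effect on alignment to the C57BL/6J reference was not tested. The table also holds the authors' own comparisons, which were not used. Its 19529 rows give 13998 genes, with a lowest mean of 6.03. In every library 100% of values were whole multiples (within 0.02) of 1 tag hit, so whole tag hits were recovered. Counts of all 276 pairs of libraries differed beyond sampling noise (chi-square of at least 16.7 per degree of freedom). The floor of 3 tag hits covers counting error only, since tags carry no molecular identifiers, while confidence intervals rest on the spread between mice.

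Tests were run in limma 3.58.1 on genes averaging 5 or more (eBayes with trend), using log2(normalized count + 1), *cast/cast* minus *b6/b6*, with no covariate, on all genes, and *P* was adjusted by Benjamini-Hochberg over all of them. Fold changes on this scale understate those of low genes, and ratios are of mean normalized counts. The alternatives were edgeR 4.0.16 (quasi-likelihood, TMM) and DESeq2 1.42.0 on tag hits, which called 391 and 395 of all genes against 208 by limma, pseudocounts of 0.5 and 5, minimum means of 0 and 20, libraries rescaled to equal totals, study number as covariate or split at 200, adjusted *P*, *P* alone, and leaving out single mice or the 4 libraries whose median correlation lay more than 3 scaled median absolute deviations below the rest. On simulated data for this comparison (13984 genes), limma called 94.9% of 196 genes changed 3-fold and 0.791% of unchanged genes. The simulation drew each gene independently, without libraries that stand apart or a link of study number with genotype. These rates may therefore not hold for the real libraries.

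The members and lists were chosen with earlier results of these data known, and the roles of some members were corrected after the table was seen. Named were all called members, those of the nutrient sensing, secreted and lipid lists, the highest uncalled member of each other role, and those near a threshold. Not every member that this rule names is described on its own. Positions are the table's, with starts made 1-based. The limits of the CAST segment (3.19 to 45.73 Mb) were marker positions that the authors gave on GRCm38, although their list of markers names an earlier build. Tags came from GENCODE M21 transcripts on GRCm38. Correlations used permutation tests with 100000 resamples. *Srrm2*, *Thoc6*, *Syngr3* and *Gm4944* were named after their values were seen. R 4.3.3 was used.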

Additional observations from a re-analysis of the deposited data

How the results depend on the processing

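The number of called members was 17 and stayed between 12 and 21 under every alternative other than the adjusted *P*, which gave 10, with 4 higher and 6 lower. edgeR called 21 and DESeq2 19, against 2.79% and 2.82% of all genes. edgeR added *Gm4944*, *Abca3*, *Cacna1h*, *Wdr24* and *Wdr90*, DESeq2 added 3 of these (*Gm4944*, *Cacna1h* and *Wdr90*), and both lost *Gng13*. The highest values of *Gm4944* and *Wdr90* were in *b6/b6* mice 12 and 6, at 169 and 138 and at 84.8 and 72.9, respectively. Members higher in *cast/cast* mice numbered 3 in the mice numbered from 200, and members lower numbered 6 in those under 200. Leaving out 1 mouse gave 13 to 18 called members, 5 to 8 higher and 7 to 11 lower. Rescaling the libraries moved the median log2 fold change of all genes by -0.11, and of the 17 called members ended the call of *Gng13*. No paired analysis was possible because the labels number no replicates across genotypes. The cause of these changes was not tested. The called members had been chosen over the same mice. Of the named members, only those not called turned their sign, as log2 fold changes. In the mice numbered from 200 these were *Ppp2r1a* (0.10), *Kremen2* (-0.10), *Ntn3* (0.14), *Pkd1* (-0.052), *Fahd1* (0.024), *Nubp2* (0.58), *Telo2* (-0.22), *Narfl* (-0.37) and *Rhot2* (0.15). In those under 200 they were *Amdhd2* (0.38), *Pgp* (0.46), *Tsc2* (0.040) and *Metrn* (0.075). Without the 4 libraries they were *Kremen2* (-0.11), *Eci1* (0.0032), *Pkd1* (-0.21), *Gfer* (-0.013), *Telo2* (-0.26) and *Pigq* (0.095). With study number as covariate they were *Pgp* (0.0023) and *Nubp2* (0.078), with rescaled libraries *Kremen2* (-0.062), and *Nubp2* with DESeq2 (0.31) and edgeR (0.29). Leaving out 1 mouse gave ranges of -0.057 to 0.13 for *Kremen2*, -0.15 to 0.010 for *Ntn3*, -0.13 to 0.21 for *Nubp2*, -0.12 to 0.57 for *Mrps34* and -0.0050 to 0.20 for *Telo2*. Depth limited *Wfikkn1* and *Cldn9* in *b6/b6* mice, where 5 and 7 of 12 mice had more than 3 tag hits.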
